A study of Mus musculus with 8 samples.

Results

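Heat shock proteins and their partners fold new proteins, refold damaged ones and move proteins across membranes. Described here are the genes of these chaperone families in mouse liver, taken as every protein-coding entry whose symbol begins with Hspa, Hspb, Hspd, Hspe, Hsph or Hsp90, or is a numbered Dnaja, Dnajb, Dnajc, Bag, Cct or Pdia symbol. The rule found 92 entries with 91 symbols among the 43629 entries with values, 22196 of which are protein-coding. The tested livers came from antagomiR-122 mice (n = 4), set against antagomiR-control mice (n = 4), 1 RNA-seq library per mouse. An antagomiR is a chemically modified antisense oligonucleotide that blocks a microRNA, and miR-122 is the most abundant microRNA of hepatocytes. All 8 mice were C57BL/6 males of 7 to 8 weeks that received 5 µg of antagomiR into the tail vein. All were also given CL316243, an agonist of the beta-3 adrenergic receptor of fat cells, at 1 mg/kg under the skin 48 hours later, and were killed 2 hours after that. Both groups therefore carry the CL316243 treatment, and mice without it or without an antagomiR are not analysed here. Mature miR-122 is not measured by these libraries, so the block itself was not checked.

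Hsp70 proteins bind exposed hydrophobic stretches of clients in an ATP cycle that J-domain proteins (the Dnaj genes) start. Nucleotide exchange factors (Hsp110 and several BAG proteins) end the cycle. Hsp90, the chaperonins and the protein disulfide isomerases take clients further, each in its own compartment. Cytosolic members are induced by the heat shock factor HSF1 and those of the endoplasmic reticulum (ER) by the unfolded protein response, and the liver, which secretes most plasma proteins, carries a large ER folding load.

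Levels are given in FPKM, a fragment count scaled to transcript length and library size, so genes can be ranked by it. Fold changes are log2 differences, antagomiR-122 minus antagomiR-control, of log2(FPKM + 1), which understates the change of low genes. Low values of the table, compared as whole fragments, put the depth of antagomiR-122 replicate 4 at 2.51 times that of antagomiR-control replicate 1, and the other libraries at 0.946 to 1.20 times. In replicate 4 of the antagomiR-122 mice, 15 entries were listed at 0 that had over 5 FPKM in each of the other 7 libraries. The hepatocyte markers Ttr, Apoa1, Cyp2e1, Tat and Ass1 were present in every liver, with a summed level of 11969 to 13916 FPKM in antagomiR-122 livers and 11508 to 13835 FPKM in antagomiR-control livers. In whole liver, fewer cells of a type and less RNA per cell cannot be told apart.

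The chaperone genes made up 0.702% to 0.812% of the summed FPKM in antagomiR-122 livers and 0.678% to 0.850% in antagomiR-control livers. The 0.812% was that of antagomiR-122 replicate 4, where the members had their lowest sum of that group, 4395 FPKM. Its total was 541058 FPKM, against 642957 to 701285 FPKM in the other antagomiR-122 livers. Of the 92 entries, 73 averaged 1 FPKM or more across the 8 mice and were tested. By mean level, 12 lay above 100 FPKM, 35 between 10 and 100 FPKM and 26 between 1 and 10 FPKM. Hspa8, the constitutive cytosolic Hsp70, was the highest and alone gave 19.8% to 24.1% of the members' FPKM in antagomiR-122 livers and 20.0% to 22.8% in antagomiR-control livers. The next were Hspa5 at 403 FPKM, Hsp90b1 at 397 FPKM, Hsp90ab1 at 328 FPKM and Pdia3 at 261 FPKM, averaged over the 8 mice. Of these, Hspa5, Hsp90b1 and Pdia3 work in the ER. The other 19 entries averaged at most 0.838 FPKM, and Dnajb8 and Pdia2 were listed at 0 in all 8 livers. None of the 19 had groups that did not overlap, and their smallest exact permutation p was 0.171 (two-sided, n = 4 each).

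**Figure D1:**
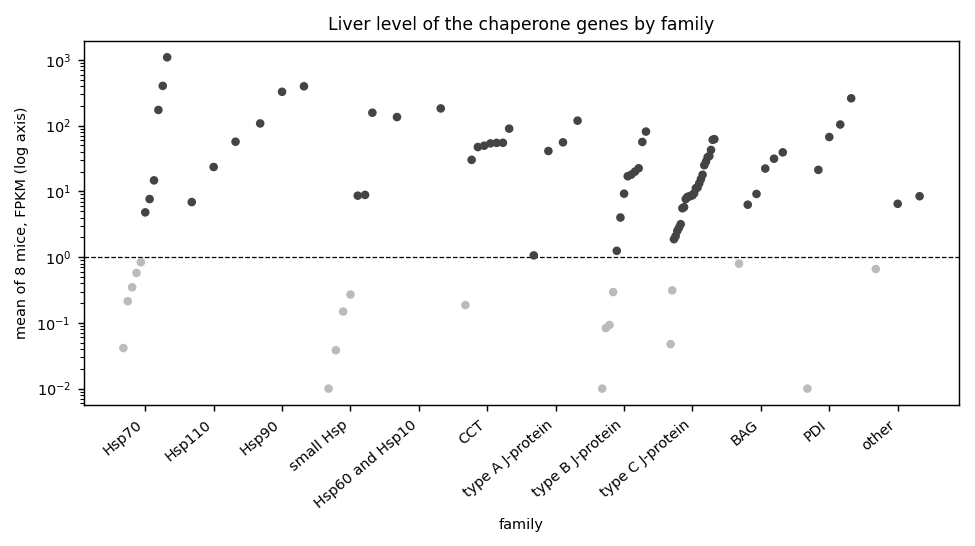
Mean FPKM over the 8 mice (log axis) of each chaperone gene, by family. Black points are the 73 members at or above 1 FPKM (dashed line), grey points the 19 below it. Points on 0.01 stand for that level or less. Hspa8 is the top point of the Hsp70 column.

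No chaperone gene passed the test between antagomiR-122 and antagomiR-control livers. With limma over all 11131 genes tested and Benjamini-Hochberg adjustment, 0 of the 73 members had an adjusted p under 0.05 (0.00% of all genes tested). The smallest adjusted p of a member was 0.654, and that of any gene was 0.251. At an unadjusted p under 0.05, limma listed 2 members (2.74%), Dnajc13 on the higher side and Dnajc7 on the lower side, against 7.44% of all genes tested, of which 3.76% were higher and 3.67% lower. Groups did not overlap for 1 member, Dnajc4 (1.37%), against 4.52% of all genes. Both shares were below the background. Leaving out 1 mouse at a time gave 0 to 4 members at the unadjusted p. There were 0 without antagomiR-122 replicate 4 (8.19% of all genes) or antagomiR-control replicate 1 (5.42%) or 2 (5.77%). There was 1 without antagomiR-122 replicate 3 (5.65%), and there were 4 without antagomiR-122 replicate 2 (8.73%). Leaving out 1 mouse gave 1 to 4 members without overlap, with 4 when antagomiR-control replicate 3 was left out, against 7.58% of all genes. It gave 3 without antagomiR-122 replicate 2 (9.13% of all genes), antagomiR-122 replicate 3 (6.38%) or antagomiR-control replicate 4 (9.28%).

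The sizes were small as well. Log2 fold changes of the 73 members ran from -0.22 for Hsph1 to 0.34 for Dnajc13, with a median of 0.02 against 0.01 over all genes tested. A value above 0 was found for 40 members (54.8%), against 53.0% of all genes. The median absolute log2 fold change was 0.06 for the members and 0.09 for all genes. More than 0.2 in either direction was seen for 7 members (9.59%), against 18.9% of all genes, and 0 members passed 0.4. The median within-group SD was 0.17 on this scale for the members and 0.16 for all genes. In the authors' deposited table, 0 of 79 members tested were called significant, against 1.42% of 13259 genes. The smallest q-value of a member in the authors' deposited table was 0.326, for Dnajc12.

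**Figure D2:**
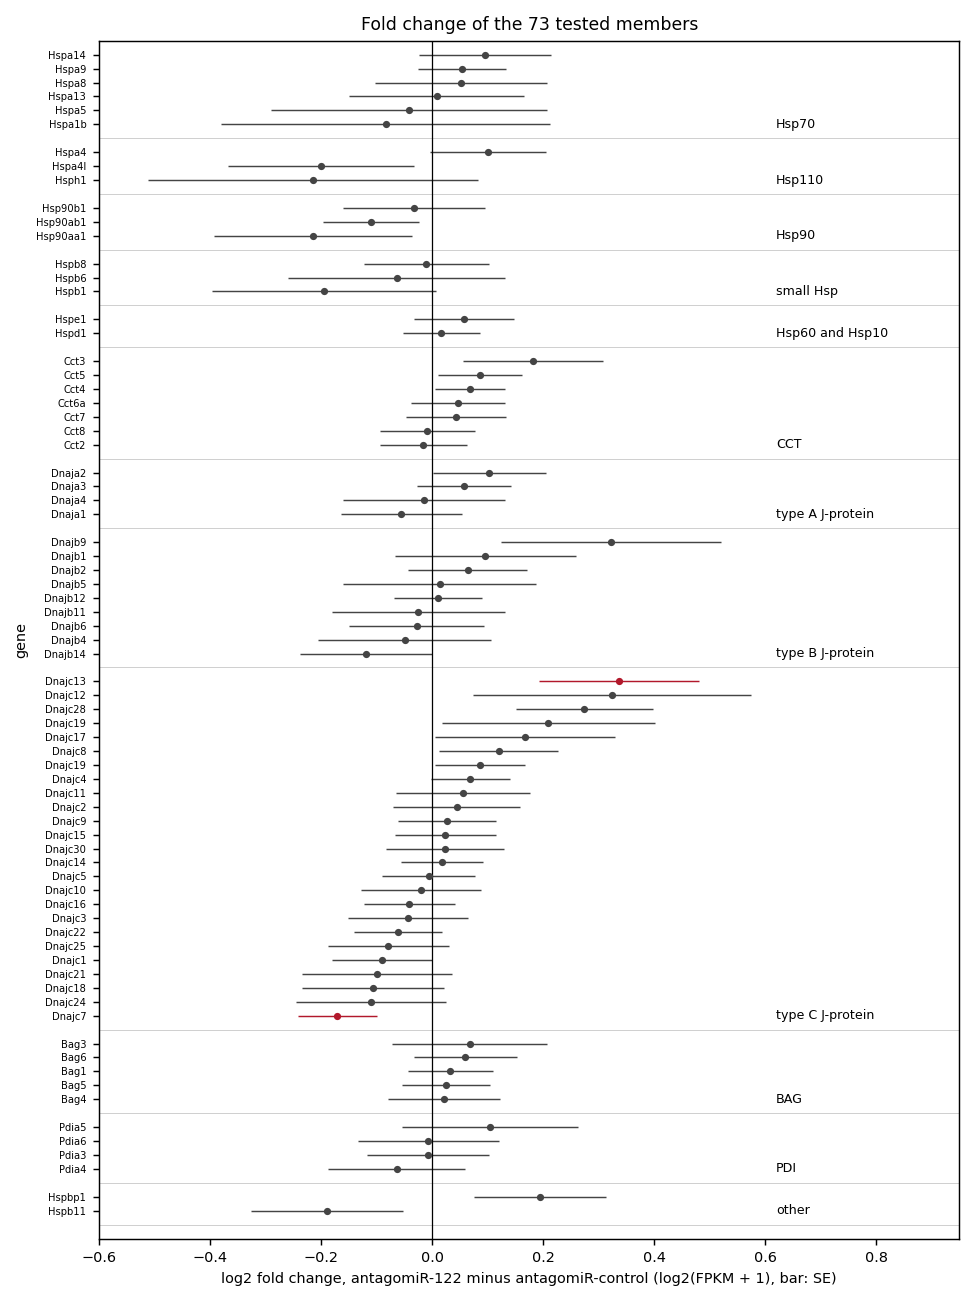
Log2 fold change (antagomiR-122 minus antagomiR-control, log2(FPKM + 1)) of the 73 tested members, by family, with its SE from limma. Red marks an unadjusted p under 0.05, reached by Dnajc13 and Dnajc7. The values lie between -0.22 and 0.34. Dnajc19 appears with 2 entries.

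Of the ER genes within the symbol rule, Hspa5 (BiP) had the highest level. It is the Hsp70 of the ER lumen and a chaperone that binds the sensors of the unfolded protein response. Hspa5 had 399, 488, 379 and 298 FPKM in antagomiR-122 livers, against 302, 287, 464 and 611 FPKM in antagomiR-control livers. The highest liver, antagomiR-control replicate 4, had 2.13 times the level of the lowest, antagomiR-control replicate 2, and all antagomiR-122 values lay between them. Limma gave a log2 fold change of -0.04 ± 0.25 (SE) at an adjusted p of 0.977. Hsp90b1 (GRP94), the Hsp90 of the ER, had 407, 409, 349 and 398 FPKM in antagomiR-122 livers, against 351, 332, 444 and 489 FPKM in antagomiR-control livers. Its antagomiR-122 values lay inside the antagomiR-control range. This came to a log2 fold change of -0.03 ± 0.13 (SE), with an adjusted p of 0.969 by limma. The promoters of these genes, and of Pdia6 and Dnajc3, are shown because they were the members that hold an ER stress response element, the sequence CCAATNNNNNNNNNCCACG that factors of the unfolded protein response are known to bind. It was present on either strand in 4 of the 76 symbols with a promoter in the RefSeq table (5.26%), against 0.137% of the promoters of 27025 genes, each reaching from 250 bases before to 50 bases after the start. The element is in capitals. All are on GRCm38.p6, written 5′ to 3′ on the strand of the gene. Hspa5 is chr2:34771840-34772139 (+), Hsp90b1 is chr10:86705395-86705694 (-), Pdia6 is chr12:17266339-17266638 (+) and Dnajc3 is chr14:118937682-118937981 (+).
Hspa5: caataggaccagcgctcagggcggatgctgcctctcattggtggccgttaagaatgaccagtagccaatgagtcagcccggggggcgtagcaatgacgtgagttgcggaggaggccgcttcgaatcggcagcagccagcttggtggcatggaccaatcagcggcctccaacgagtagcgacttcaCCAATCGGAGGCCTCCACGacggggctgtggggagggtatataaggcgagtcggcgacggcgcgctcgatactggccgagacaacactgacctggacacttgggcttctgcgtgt
Hsp90b1: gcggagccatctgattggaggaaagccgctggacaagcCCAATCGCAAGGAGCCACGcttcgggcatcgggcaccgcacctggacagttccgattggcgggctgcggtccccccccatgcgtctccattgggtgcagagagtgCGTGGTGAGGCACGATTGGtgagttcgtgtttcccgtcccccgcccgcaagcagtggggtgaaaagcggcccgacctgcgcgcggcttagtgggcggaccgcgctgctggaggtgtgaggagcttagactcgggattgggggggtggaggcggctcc
Pdia6: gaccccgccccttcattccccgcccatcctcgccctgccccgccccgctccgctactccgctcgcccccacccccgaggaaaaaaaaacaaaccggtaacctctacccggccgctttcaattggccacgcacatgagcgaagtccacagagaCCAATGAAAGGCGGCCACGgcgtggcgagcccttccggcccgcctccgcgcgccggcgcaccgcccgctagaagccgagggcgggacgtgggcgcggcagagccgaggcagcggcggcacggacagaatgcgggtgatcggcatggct
Dnajc3: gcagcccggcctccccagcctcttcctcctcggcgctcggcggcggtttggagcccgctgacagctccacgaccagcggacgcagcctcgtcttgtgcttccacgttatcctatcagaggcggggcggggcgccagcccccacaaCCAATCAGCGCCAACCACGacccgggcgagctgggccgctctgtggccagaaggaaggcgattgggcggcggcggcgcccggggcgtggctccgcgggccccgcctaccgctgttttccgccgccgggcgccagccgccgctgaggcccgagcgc
The element ends 47 bases before the start in Hspa5, 80 in Pdia6 and 87 in Dnajc3. Hsp90b1 has it at 2 places, ending 194 bases before the start on the strand of the gene and 89 bases before it on the other strand. A match is only a match of letters, and binding was not measured here.

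No J-protein or disulfide isomerase of the ER passed the test. Dnajb9 (ERdj4), a J-protein of BiP that is known as a target of the unfolded protein response, had 93.6, 99.1, 96.5 and 69.2 FPKM in antagomiR-122 livers, against 55.1, 57.2, 77.2 and 103 FPKM in antagomiR-control livers. The groups overlapped, as antagomiR-122 replicate 4 lay below antagomiR-control replicates 3 and 4. By limma its log2 fold change was 0.32 ± 0.20 (SE) and the adjusted p 0.764. In the authors' deposited table its q-value was 0.406. Dnajb11 (ERdj3) had 54.8, 66.7, 54.0 and 47.6 FPKM in antagomiR-122 livers, against 56.0, 42.0, 60.2 and 71.2 FPKM in antagomiR-control livers. The antagomiR-122 range lay inside the antagomiR-control range. Its change of -0.03 ± 0.16 on the log2 scale (SE) had a limma adjusted p of 0.977. Dnajc3 (p58IPK), which also inhibits the kinase PERK, averaged 61.4 ± 7.49 FPKM in antagomiR-122 livers and 63.3 ± 6.90 FPKM in antagomiR-control livers (SD, n = 4 each). The groups of Dnajc3 overlapped. Among the isomerases, which form and exchange disulfide bonds, Pdia4 (ERp72) had 65.4, 72.8, 64.6 and 58.9 FPKM in antagomiR-122 livers, against 65.7, 54.8, 72.4 and 83.2 FPKM in antagomiR-control livers. The highest and the lowest liver were both antagomiR-control. Pdia3 (ERp57), which serves glycoproteins, averaged 259.7 ± 20.1 FPKM in antagomiR-122 livers and 262 ± 36.1 FPKM in antagomiR-control livers (SD, n = 4 each). Pdia6 averaged 104 ± 12.2 FPKM in antagomiR-122 livers and 105 ± 17.1 FPKM in antagomiR-control livers (SD, n = 4 each). Pdia5 had 18.4, 28.4, 23.2 and 18.5 FPKM in antagomiR-122 livers, against 19.6, 16.9, 19.7 and 25.6 FPKM in antagomiR-control livers. Of the 4 tested isomerases within the symbol rule, 1 lay above 0 (Pdia5, log2 fold change 0.10 ± 0.16, SE) and 3 below it, the lowest being Pdia4 at -0.06 ± 0.12 (SE). P4hb, an ER folding factor outside the symbol rule, had a higher mean level than Hspa5. It averaged 561 ± 79.8 FPKM in antagomiR-122 livers and 499 ± 46.5 FPKM in antagomiR-control livers (SD, n = 4 each). The log2 fold change of P4hb was 0.16 ± 0.11 (SE), with a limma adjusted p of 0.797. Hspa13, an Hsp70 of the microsomes, averaged 14.7 ± 2.49 FPKM in antagomiR-122 livers and 14.7 ± 3.20 FPKM in antagomiR-control livers (SD, n = 4 each).

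In the cytosol, Hspa8 had the highest level of any chaperone gene. Hspa8 had 1202, 1329, 1070.5 and 870.3 FPKM in antagomiR-122 livers, against 897, 945, 1192 and 1277 FPKM in antagomiR-control livers. The lowest value of all was antagomiR-122 replicate 4 and the highest antagomiR-122 replicate 2, so the antagomiR-122 livers spanned the antagomiR-control range. With limma the difference was 0.05 ± 0.15 on the log2 scale (SE), adjusted p 0.958. Hspa1b, the inducible Hsp70, had 5.79, 6.93, 3.61 and 2.41 FPKM in antagomiR-122 livers, against 3.93, 2.98, 6.71 and 6.03 FPKM in antagomiR-control livers. Its spread over the 8 livers was 2.88-fold, with antagomiR-122 replicate 4 lowest. The log2 fold change was -0.08 ± 0.30 (SE), with a limma adjusted p of 0.967. Hspa1a, its neighbour on chromosome 17, averaged 0.187 FPKM in antagomiR-122 livers and 0.240 FPKM in antagomiR-control livers. The coding sequences of the pair are 99.5% identical, with 1919 of 1929 aligned bases in common, so how reads were divided between them is uncertain. Hspa14, which works at the ribosome, averaged 7.97 ± 1.48 FPKM in antagomiR-122 livers and 7.34 ± 0.650 FPKM in antagomiR-control livers (SD, n = 4 each).

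Hsp110 proteins exchange the nucleotide of Hsp70. Hsph1 (Hsp105), which HSF1 induces, had 27.9, 33.1, 14.8 and 13.4 FPKM in antagomiR-122 livers, against 23.2, 17.9, 26.6 and 31.1 FPKM in antagomiR-control livers. Replicates 3 and 4 of the antagomiR-122 mice lay below every antagomiR-control liver, whereas antagomiR-122 replicate 2 was the highest of all. Limma gave a log2 fold change of -0.22 ± 0.30 (SE) at an adjusted p of 0.902. Hspa4l (Apg-1) had 7.89, 5.66, 4.13 and 8.08 FPKM in antagomiR-122 livers, against 7.58, 7.44, 7.28 and 7.01 FPKM in antagomiR-control livers. The antagomiR-control livers were close together, and the antagomiR-122 livers lay on both sides of them. Its log2 fold change was -0.20 ± 0.17 (SE). Hspa4 (Apg-2) had 60.1, 66.6, 55.1 and 54.2 FPKM in antagomiR-122 livers, against 50.6, 48.1, 59.1 and 62.5 FPKM in antagomiR-control livers. The groups overlapped. Promoters are shown for Hsph1, Hspa1b and Hspe1, HSF1-induced members that hold the heat shock element. The element is written here as units of GAANNTTC or TTCNNGAA. Either form was found in 19 of 76 members with a promoter (25.0%), against 17.0% of all genes. Hspa8, Hsp90aa1, Hsp90ab1, Hspa4l and Dnajb1, also listed as HSF1-induced, were not among the 19. Not every member has a promoter listed. Of the single forms, GAANNTTC was found in 15 members (19.7%), against 9.04% of all genes, and TTCNNGAA in 8 (10.5%), against 9.60%. A run of 3 alternating units, TTCNNGAANNTTC or GAANNTTCNNGAA, was found in 4 members (5.26%), Dnajb6, Hspd1, Hspe1 and Hsph1, against 0.662% of all genes. Each form was searched on both strands and the forms may overlap. In Hsph1 the run of 3 units lies after the start, in each promoter listed for it. The matches are in capitals, on GRCm38.p6 and the strand of the gene, 5′ to 3′. Hsph1 is chr5:149636287-149636586 (-), Hspa1b is chr17:34959189-34959488 (-) and Hspe1 is chr1:55087898-55088197 (+).
Hsph1: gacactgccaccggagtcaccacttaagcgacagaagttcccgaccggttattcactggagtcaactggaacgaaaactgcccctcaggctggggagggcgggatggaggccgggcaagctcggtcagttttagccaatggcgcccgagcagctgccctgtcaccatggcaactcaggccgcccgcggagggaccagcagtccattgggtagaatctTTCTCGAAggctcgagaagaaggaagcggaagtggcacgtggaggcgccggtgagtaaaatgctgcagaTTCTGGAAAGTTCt
Hspa1b: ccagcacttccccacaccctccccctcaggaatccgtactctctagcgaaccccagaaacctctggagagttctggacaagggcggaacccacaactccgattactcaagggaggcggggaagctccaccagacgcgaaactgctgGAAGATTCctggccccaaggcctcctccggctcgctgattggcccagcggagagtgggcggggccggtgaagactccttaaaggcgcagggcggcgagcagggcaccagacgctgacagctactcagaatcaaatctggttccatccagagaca
Hspe1: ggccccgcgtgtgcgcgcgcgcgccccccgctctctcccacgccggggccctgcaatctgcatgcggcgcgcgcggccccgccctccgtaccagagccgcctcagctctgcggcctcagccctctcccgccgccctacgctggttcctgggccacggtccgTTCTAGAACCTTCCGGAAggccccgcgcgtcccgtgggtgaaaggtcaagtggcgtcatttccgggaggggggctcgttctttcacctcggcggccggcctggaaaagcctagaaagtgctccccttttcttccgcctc
Hspd1 lies head to head with Hspe1 on the other strand and has promoters listed for different starts. The promoter at chr1:55087883-55088182 (-) holds the element printed for Hspe1. That at chr1:55088194-55088493 (-) holds no match. No value here measures HSF1 binding.

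Of the cytosolic Hsp90 pair, which mature kinases and steroid receptors, Hsp90ab1 is the constitutive and Hsp90aa1 the more inducible form. Hsp90aa1 had 103, 134, 91.0 and 75.0 FPKM in antagomiR-122 livers, against 108, 93.6, 119 and 142 FPKM in antagomiR-control livers. Replicates 3 and 4 of the antagomiR-122 mice lay below every antagomiR-control liver, and replicate 2 lay above 3 of them. This came to a log2 fold change of -0.21 ± 0.18 (SE), with an adjusted p of 0.825 by limma. Hsp90ab1 had 320.0, 361, 283 and 299 FPKM in antagomiR-122 livers, against 325, 336, 348 and 349 FPKM in antagomiR-control livers. Every antagomiR-122 liver but replicate 2, the highest of all, lay below every antagomiR-control liver. By limma its log2 fold change was -0.11 ± 0.09 (SE) and the adjusted p 0.811. All 3 Hsp90 genes, Hsp90b1 included, had log2 fold changes below 0. Small heat shock proteins hold unfolding proteins without ATP. Hspb8, a partner of Bag3, was much the highest of them in liver. Hspb8 had 142, 152, 187 and 147 FPKM in antagomiR-122 livers, against 135, 152, 170.3 and 175 FPKM in antagomiR-control livers. The lowest liver was an antagomiR-control one and the highest an antagomiR-122 one. Hspb1 averaged 8.29 ± 2.73 FPKM in antagomiR-122 livers and 9.41 ± 1.67 FPKM in antagomiR-control livers (SD, n = 4 each). Hspb6 averaged 8.57 ± 3.26 FPKM in antagomiR-122 livers and 8.66 ± 0.918 FPKM in antagomiR-control livers (SD, n = 4 each). The other 4 small heat shock genes were below 1 FPKM.

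**Figure D3:**
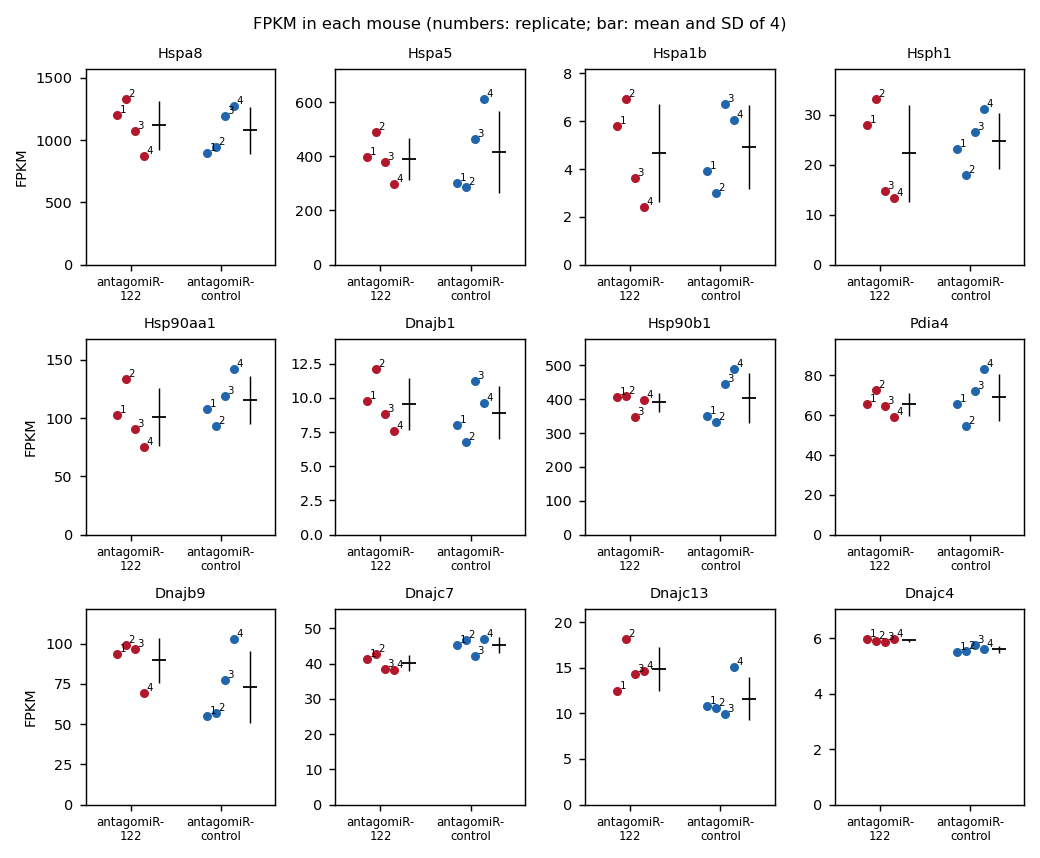
FPKM in each mouse (linear axes from 0, replicate numbers beside the points) of 12 members, antagomiR-122 left and antagomiR-control right, with the mean and SD of 4 as a bar. Except for Dnajc4, the groups overlap. Replicate 2 of the antagomiR-122 mice and replicates 3 and 4 of the controls tend to be high for Hspa8, Hspa5 and Hspa1b.

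J-proteins with a known place in the Hsp70 cycle of the cytosol and mitochondria also overlapped between the groups. Dnajb1 (Hsp40), the main J-protein of inducible Hsp70, had 9.74, 12.1, 8.84 and 7.58 FPKM in antagomiR-122 livers, against 8.01, 6.79, 11.2 and 9.61 FPKM in antagomiR-control livers. The highest liver was antagomiR-122 replicate 2 and the lowest antagomiR-control replicate 2. Its change of 0.10 ± 0.16 on the log2 scale (SE) had a limma adjusted p of 0.923. Dnaja1 averaged 117 ± 17.8 FPKM in antagomiR-122 livers and 121 ± 6.80 FPKM in antagomiR-control livers (SD, n = 4 each). Dnaja2 averaged 58.0 ± 8.42 FPKM in antagomiR-122 livers and 53.6 ± 2.70 FPKM in antagomiR-control livers (SD, n = 4 each). Dnaja3, of mitochondria, averaged 42.0 ± 2.50 FPKM in antagomiR-122 livers and 40.4 ± 3.78 FPKM in antagomiR-control livers (SD, n = 4 each). None of these came near the test, with limma adjusted p of 0.849 for Dnaja2 and above that for the others. Dnaja4 averaged 1.06 ± 0.329 FPKM in antagomiR-122 livers and 1.07 ± 0.253 FPKM in antagomiR-control livers (SD, n = 4 each). The annotated span of Dnaja4 overlaps by 1581 bases that of Wdr61, on the opposite strand with a mean level of 36.9 FPKM. Of the 4 type A genes the highest log2 fold change was that of Dnaja2, 0.10 ± 0.10 (SE). Dnajb2, which binds ubiquitin chains, averaged 20.5 ± 1.77 FPKM in antagomiR-122 livers and 19.6 ± 2.65 FPKM in antagomiR-control livers (SD, n = 4 each). Dnajb14, of the ER membrane, averaged 3.81 ± 0.613 FPKM in antagomiR-122 livers and 4.21 ± 0.508 FPKM in antagomiR-control livers (SD, n = 4 each).

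Type C J-proteins are the most diverse in their other domains and were the largest family, with 25 of the 73 tested members. They held both members with an unadjusted p under 0.05 by limma, 2 of 25, against 7.44% of all genes tested. Dnajc7 (TPR2), which passes clients between Hsp90 and Hsp70, had 41.4, 42.6, 38.6 and 38.2 FPKM in antagomiR-122 livers, against 45.4, 46.8, 42.2 and 47.0 FPKM in antagomiR-control livers. Every antagomiR-122 liver but replicate 2 lay below every antagomiR-control liver. With limma the difference was -0.17 ± 0.07 on the log2 scale (SE), adjusted p 0.654. The annotated span of Dnajc7, introns included, overlaps those of Cnp and Nkiras2 on the opposite strand, with mean levels of 4.83 and 6.26 FPKM. Overlap of exons was not examined. The strand setting of the libraries is not given in the sources used here. Dnajc13 (RME-8), a J-protein of endosomes, had 12.4, 18.1, 14.3 and 14.7 FPKM in antagomiR-122 livers, against 10.8, 10.6, 9.90 and 15.1 FPKM in antagomiR-control livers. AntagomiR-control replicate 4 lay among the antagomiR-122 livers and the other 3 controls below them all. The log2 fold change was 0.34 ± 0.14 (SE), with a limma adjusted p of 0.659. Dnajc4 had 5.97, 5.91, 5.87 and 5.96 FPKM in antagomiR-122 livers, against 5.49, 5.55, 5.77 and 5.63 FPKM in antagomiR-control livers. This was the only tested member whose groups did not overlap. Limma gave a log2 fold change of 0.07 ± 0.07 (SE) at an adjusted p of 0.855. Its exact permutation p was 0.0286, the smallest that 4 against 4 mice can give, two-sided. Groups that do not overlap always give this p, so it adds nothing to the lack of overlap. Such groups were found for 4.52% of all genes tested.

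Dnajc28, a low type C gene, had 3.29, 2.86, 2.47 and 4.12 FPKM in antagomiR-122 livers, against 2.42, 2.18, 2.50 and 2.61 FPKM in antagomiR-control livers. Replicate 3 of the antagomiR-122 mice lay among the antagomiR-control livers and the other 3 above them. This came to a log2 fold change of 0.27 ± 0.12 (SE), with an adjusted p of 0.671 by limma. Dnajc12, a partner of phenylalanine hydroxylase folding and named here after its values were seen, had 9.95, 20.3, 10.8 and 9.71 FPKM in antagomiR-122 livers, against 9.63, 11.1, 6.23 and 11.9 FPKM in antagomiR-control livers. Replicate 2 of the antagomiR-122 mice was the highest of all 8 livers. By limma its log2 fold change was 0.32 ± 0.25 (SE) and the adjusted p 0.803. Dnajc19, of mitochondrial protein import, has 2 entries, 1 of which is not in GENCODE M21. The entry that is there averaged 35.6 ± 3.65 FPKM in antagomiR-122 livers and 33.4 ± 0.603 FPKM in antagomiR-control livers (SD, n = 4 each). The other averaged 36.2 ± 11.9 FPKM in antagomiR-122 livers and 30.2 ± 3.38 FPKM in antagomiR-control livers (SD, n = 4 each). Reads may be divided between these entries, so neither value is a level of the gene alone.

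Several BAG proteins exchange the nucleotide of Hsp70 as Hsp110 does. All 5 tested BAG genes had log2 fold changes above 0, from 0.02 for Bag4 to 0.07 for Bag3, each smaller than its SE. Bag3, which HSF1 induces and which directs clients to autophagy, averaged 22.7 ± 2.72 FPKM in antagomiR-122 livers and 21.8 ± 4.02 FPKM in antagomiR-control livers (SD, n = 4 each). Bag1 averaged 39.8 ± 2.78 FPKM in antagomiR-122 livers and 38.8 ± 1.99 FPKM in antagomiR-control livers (SD, n = 4 each). Bag6, of membrane protein quality control, averaged 32.1 ± 3.07 FPKM in antagomiR-122 livers and 30.8 ± 2.85 FPKM in antagomiR-control livers (SD, n = 4 each). Chaperonins enclose a client in a chamber. Of the mitochondrial pair, Hspd1 (Hsp60) averaged 184 ± 11.1 FPKM in antagomiR-122 livers and 182 ± 3.51 FPKM in antagomiR-control livers (SD, n = 4 each). Hspe1 (Hsp10) averaged 138 ± 15.3 FPKM in antagomiR-122 livers and 132 ± 6.75 FPKM in antagomiR-control livers (SD, n = 4 each). Their annotated spans overlap by 112 bases on opposite strands. The cytosolic CCT ring folds actin and tubulin. Its 7 tested subunits within the symbol rule lay between 30.2 and 90.2 FPKM, with 5 above 0 and 2 below 0 in log2 fold change. Cct3 had 50.3, 74.3, 58.2 and 51.3 FPKM in antagomiR-122 livers, against 45.7, 48.5, 54.2 and 55.6 FPKM in antagomiR-control livers. The top value was antagomiR-122 replicate 2. Its change of 0.18 ± 0.13 on the log2 scale (SE) had a limma adjusted p of 0.797. Cct4 averaged 55.0 ± 1.58 FPKM in antagomiR-122 livers and 52.4 ± 1.61 FPKM in antagomiR-control livers (SD, n = 4 each). Cct5 averaged 56.6 ± 4.74 FPKM in antagomiR-122 livers and 53.2 ± 1.56 FPKM in antagomiR-control livers (SD, n = 4 each). The groups of both overlapped. Cct8, the highest of these 7, averaged 89.8 ± 4.29 FPKM in antagomiR-122 livers and 90.6 ± 9.10 FPKM in antagomiR-control livers (SD, n = 4 each). Tcp1, a ring subunit outside the symbol rule, lay higher. It averaged 143 ± 10.3 FPKM in antagomiR-122 livers and 147 ± 5.83 FPKM in antagomiR-control livers (SD, n = 4 each). None of the 7 subunits had a limma adjusted p below that of Cct3. Outside the families, Hspbp1, an exchange factor of Hsp70, averaged 9.11 ± 1.46 FPKM in antagomiR-122 livers and 7.79 ± 0.818 FPKM in antagomiR-control livers (SD, n = 4 each). Hspb11, which is known as a part of ciliary transport despite its symbol, averaged 5.96 ± 0.712 FPKM in antagomiR-122 livers and 7.00 ± 1.39 FPKM in antagomiR-control livers (SD, n = 4 each). Their log2 fold changes of 0.19 ± 0.12 and -0.19 ± 0.14 (SE) had limma adjusted p of 0.762 and 0.799.

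Many of these genes shared differences between mice of the same group. The median member deviated from its mean of 8 mice by -0.02, 0.10, -0.04 and -0.06 (log2(FPKM + 1)) in antagomiR-122 replicates 1 to 4, and by -0.06, -0.10, 0.01 and 0.10 in antagomiR-control replicates 1 to 4. Over all genes tested the same medians lay between -0.01 and 0.02. For the 6 tested Hsp70 genes the medians were 0.02, 0.30, -0.05 and -0.22 in antagomiR-122 livers, and -0.20, -0.25, 0.19 and 0.24 in antagomiR-control livers. Replicate 2 of the antagomiR-122 mice and replicates 3 and 4 of the controls were thus high, and antagomiR-122 replicate 4 and control replicates 1 and 2 low. For the 25 tested type C J-proteins these medians were between -0.06 and 0.05.

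**Figure D4:**
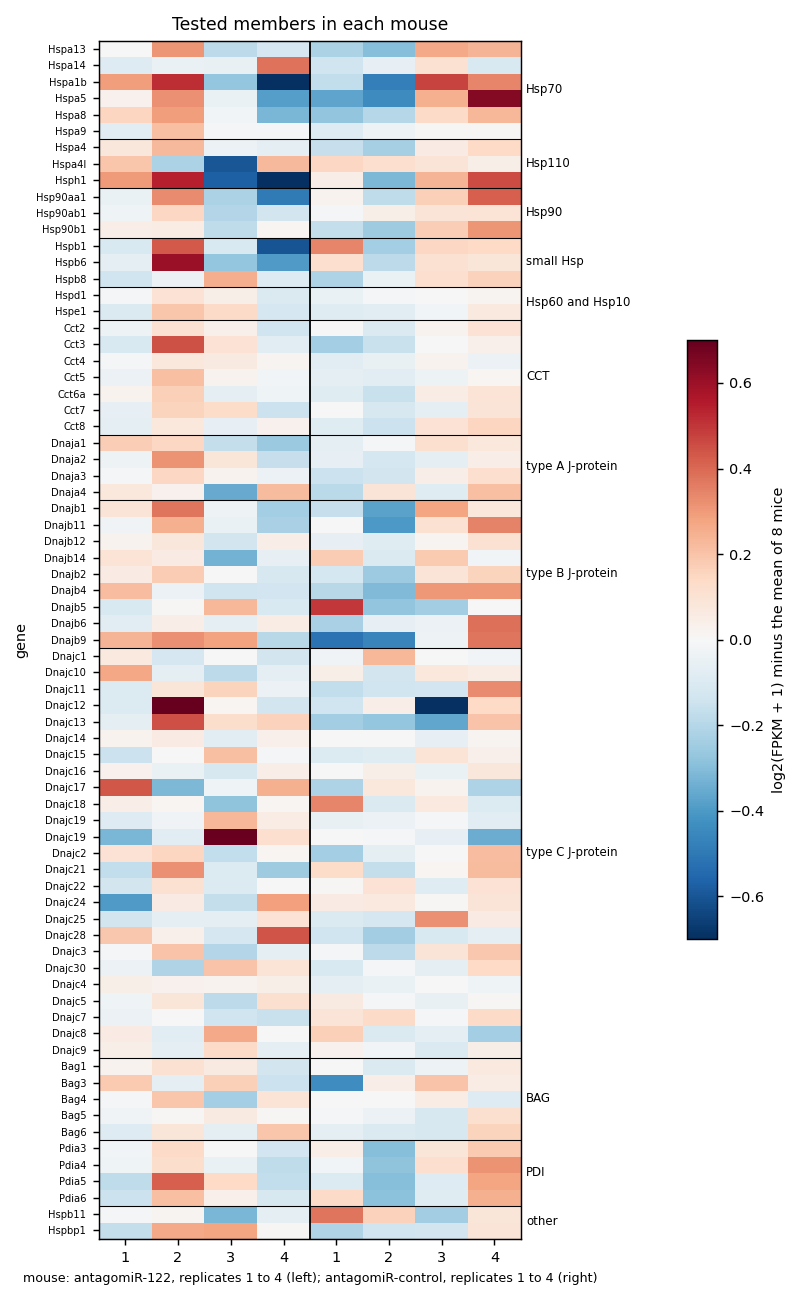
Deviation of log2(FPKM + 1) from the mean of 8 mice for the 73 tested members, by family (rows), in antagomiR-122 mice (left 4 columns) and antagomiR-control mice (right 4). Colours are capped at 0.7. Many Hsp70, Hsp90, PDI and type B rows are red in antagomiR-122 replicate 2 and antagomiR-control replicate 4 and blue in antagomiR-control replicate 2, while type C rows share no column pattern.

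The 2 members with the highest mean level, Hspa8 and Hspa5, were used as points of comparison, a choice made after these values were seen. Pearson's r of log2(FPKM + 1) over the 8 mice was 0.92 between them (exact permutation p = 0.00293 over 40320 pairings, adjusted p = 0.413), and Spearman's rho was 0.88 (exact permutation p = 0.00724). Without the 2 mice farthest from the median of Hspa8 the r was 0.89. The same r was computed for every gene tested, 11130 for each, with adjustment over all of them. No gene passed an adjusted p of 0.05, the smallest being 0.413 with Hspa8 and 0.110 with Hspa5, so what follows describes these 8 livers. An r of at least 0.8 with Hspa8 was found for 10 of the 72 other members (13.9%), against 1.92% of all genes. With Hspa5 it was found for 17 of 72 (23.6%), against 2.03% of all genes. The median r of the members was 0.53 with each, against 0.02 and 0.04 over all genes. Between the members themselves, 8 reached 0.8 with both.

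By family, 3 of the 5 other tested Hsp70 genes and 3 of 9 type B J-proteins reached 0.8 with Hspa8. So did 1 of 7 CCT, 1 of 3 Hsp110, 1 of 4 type A genes and 1 of the Hsp60 and Hsp10 pair. None of 3 Hsp90, 4 PDI, 5 BAG, 3 small Hsp, 2 other and 25 type C genes did. With Hspa5 the counts were 3 of 5 Hsp70, 2 of 3 Hsp90, 2 of 4 PDI, 5 of 9 type B and 3 of 7 CCT genes. They were 1 of 3 Hsp110 and 1 of 4 type A genes. With Hspa5 none of 5 BAG, 3 small Hsp, 2 other, 25 type C genes or the Hsp60 and Hsp10 pair reached it. The member most like Hspa8 after Hspa5 was Hspa1b, with r = 0.91 (exact permutation p = 0.00469, adjusted p = 0.413) and rho = 0.86 (exact permutation p = 0.0107). The member most like Hspa5 was Pdia4, with r = 0.93 (exact permutation p = 0.000595, adjusted p = 0.300) and rho = 0.93 (exact permutation p = 0.00223). Without the 2 mice farthest from the median of each, these were 0.94 for Hspa1b with Hspa8 and 0.86 for Pdia4 with Hspa5. Dnajb2 had r = 0.91 with Hspa8 and 0.93 with Hspa5, and Hspa4 had 0.90 and 0.87. Their rho lay between 0.88 and 0.95. These 2 and Hspa1b and Pdia4 were named for their r, and no r of theirs passed after adjustment over all genes (smallest adjusted p of 0.300). Of the 4 members with an ER stress response element, Hsp90b1 had r = 0.84, Dnajc3 0.78 and Pdia6 0.62 with Hspa5 (exact permutation p of 0.00990 to 0.105, adjusted 0.457 to 0.643), with rho of 0.71 to 0.88 (exact permutation p of 0.00724 to 0.0576). Without the 2 mice farthest from the median of Hspa5 these r were 0.16 to 0.61. Those mice had its highest and lowest level, so leaving them out narrows its range, and their part was not tested. With Hspa8 the same 3 genes had r of 0.45 to 0.70, and 0.77 to 0.91 without the 2 mice farthest from its median.

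**Figure D5:**
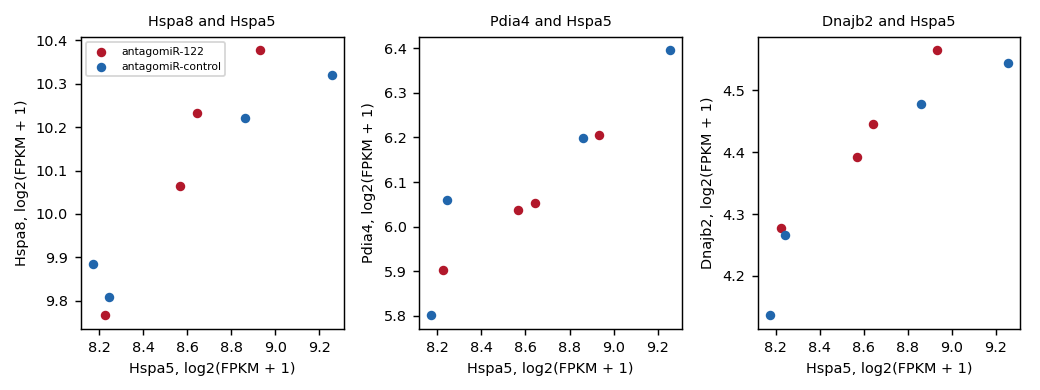
Log2(FPKM + 1) of Hspa8, Pdia4 and Dnajb2 (vertical axes) against Hspa5 (horizontal axes), 1 point per mouse, antagomiR-122 in red and antagomiR-control in blue. Both groups lie along 1 band, with r of 0.92, 0.93 and 0.93, and each group has low and high mice.

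How many members reached 0.8 depended on the mice. Without the 2 farthest mice, 19 members reached it with Hspa8, 8 of the first 10 among them, against 4.51% of all genes. With Hspa5 11 did, 10 of the first 17 among them, against 2.57% of all genes. Without antagomiR-122 replicate 4, the deepest library, the counts were 13 with Hspa8 (3.67% of all genes) and 18 with Hspa5 (3.16%). On deviations from the group means they were 14 (2.96%) and 17 (3.81%). Leaving out antagomiR-122 replicate 1 or 3 gave 16 (3.58% of all genes) and 16 (3.57%) with Hspa8, and leaving out antagomiR-control replicate 1 gave 19 (2.94%). Leaving out antagomiR-control replicate 2 or 4 gave 11 (1.99%) and 10 (2.49%) with Hspa5.

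Some ER genes outside the symbol rule had an r of at least 0.8 with Hspa5, and most did not. Of 19 tested ER folding factors 5 reached it, and of 18 regulators of the unfolded protein response 2 did, against 2.03% of all genes. The median r was 0.60 for the folding factors, none of which lay below 0, and 0.44 for the regulators, of which 4 lay below 0. The lowest r was 0.11 for the folding factors and -0.53 for the regulators. Syvn1, a ubiquitin ligase of ER-associated degradation, had 38.1, 47.2, 33.2 and 26.6 FPKM in antagomiR-122 livers, against 27.1, 24.2, 40.6 and 52.3 FPKM in antagomiR-control livers. It had r = 0.99 with Hspa5. Manf, a secreted ER stress protein, had 100.2, 109.7, 95.3 and 61.5 FPKM in antagomiR-122 livers, against 71.6, 57.9, 112 and 156 FPKM in antagomiR-control livers. Its r with Hspa5 was 0.98. Creld2, an ER protein induced by the unfolded protein response, had 30.7, 48.4, 29.2 and 16.6 FPKM in antagomiR-122 livers, against 22.7, 14.7, 40.1 and 51.7 FPKM in antagomiR-control livers. Its r with Hspa5 was 0.96. Hyou1, the Hsp110-like exchange factor of BiP, had r = 0.96 and Txndc5, a disulfide isomerase, 0.92. These 5 were named for their high r after it was seen, so their r are a description and no p is given. Without the 2 mice farthest from the median of Hspa5 their r was 0.92 to 0.98. The summed Kupffer cell markers (Clec4f, Cd5l, Vsig4, Emr1 and Marco, none at 0) were 196, 202, 232 and 245 FPKM in antagomiR-122 livers, against 262, 224, 192 and 213 FPKM in antagomiR-control livers. The 2 livers with the highest sum, antagomiR-control replicate 1 and antagomiR-122 replicate 4, were the 2 with the lowest Hspa8. The lowest Hspa5 was that of antagomiR-control replicate 2, with a sum of 224 FPKM. The r of this sum was -0.84 with Hspa8 and -0.68 with Hspa5. For summed endothelial markers the r were -0.69 and -0.42, for neutrophil markers -0.63 and -0.66, and for T and B cell markers -0.50 and -0.55. Those of hepatocyte, stellate, cholangiocyte and erythroid markers lay between -0.37 and 0.41. The part of any cell type in the pattern was not tested.

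Regulators and partners outside the rule were read from lists of textbook genes. In every list, 0 genes had a limma adjusted p under 0.05 (0.00% of all genes). Hsf1, the master heat shock factor, had 4.78, 6.03, 5.14 and 4.95 FPKM in antagomiR-122 livers, against 5.71, 5.19, 4.21 and 5.87 FPKM in antagomiR-control livers. The groups overlapped, and the log2 fold change was -0.00092 ± 0.11 (SE). Hsbp1, a binding partner of HSF1, Hsf4 and Hsf2 had log2 fold changes of 0.11 ± 0.08, 0.04 ± 0.11 and 0.01 ± 0.12 (SE). Of 18 tested HSF1-induced genes, 13 of them members, 6 lay above 0 and 12 below 0 in log2 fold change, with a median of -0.07 and 0 at an unadjusted p under 0.05. The smallest p in that list were those of the small heat shock protein Cryab (-0.21 ± 0.16, SE), Hsp90ab1 and the Hsp90 immunophilin Fkbp4 (-0.10 ± 0.08, SE). Among 20 tested cochaperones of Hsp70 and Hsp90, 8 lay above and 12 below 0. Tomm70a, the import receptor that docks both chaperones on mitochondria, had 0.13 ± 0.08 (SE) and Sgta 0.11 ± 0.08 (SE). Of the RNA-binding genes Cirbp, Rbm3 and Srsf5, the first 2 of which are induced by cold, the log2 fold changes were 0.14 ± 0.11, 0.06 ± 0.12 and 0.005 ± 0.08 (SE).

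Prefoldin hands actin and tubulin to the CCT ring. Its subunit Pfdn2 had 41.4, 40.8, 48.8 and 40.3 FPKM in antagomiR-122 livers, against 34.2, 39.1, 36.5 and 37.2 FPKM in antagomiR-control livers. Pfdn4 had 9.48, 9.52, 9.28 and 7.97 FPKM in antagomiR-122 livers, against 10.2, 9.70, 10.6 and 13.4 FPKM in antagomiR-control livers. The groups of each did not overlap, in opposite directions, and the limma adjusted p were 0.613 and 0.659. They were 2 of the 9 tested genes of this list, and such groups were found for 4.52% of all genes tested. Pfdn1 had a log2 fold change of 0.10 ± 0.08 (SE). Clpx, the unfoldase of the mitochondrial protease ClpXP, had 102, 132, 91.6 and 108 FPKM in antagomiR-122 livers, against 148, 144, 133 and 178 FPKM in antagomiR-control livers. Every antagomiR-122 liver lay below every antagomiR-control liver, which held for 1 of the 10 tested genes of its list, against 4.52% of all genes without overlap. The log2 fold change was -0.48 ± 0.12 (SE), with a limma adjusted p of 0.410. Of the 10 mitochondrial chaperones outside the rule, 8 lay above and 2 below 0, among them the disaggregase Clpb (0.14 ± 0.11, SE) and the exchange factor Grpel1 (0.11 ± 0.09, SE).

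Among 19 tested ER folding factors, 8 lay above and 11 below 0 in log2 fold change. Txndc11, an ER thioredoxin protein, had 0.41 ± 0.15 (SE), the prolyl isomerase Fkbp11 0.34 ± 0.18 (SE) and Sdf2l1 -0.27 ± 0.19 (SE). Of 18 regulators of the unfolded protein response, 10 lay above and 8 below 0. Creb3l3 (CREB-H), a membrane-bound factor of hepatocytes, had 202, 230.0, 252 and 208 FPKM in antagomiR-122 livers, against 163, 181, 195 and 207 FPKM in antagomiR-control livers. The lowest antagomiR-122 liver lay below the highest antagomiR-control liver, and its log2 fold change was 0.26 ± 0.10 (SE). Derl1, of the ER degradation channel, had 0.20 ± 0.08 (SE) and the protease Mbtps2 -0.27 ± 0.13 (SE). The limma adjusted p of these 3 were 0.613, 0.618 and 0.699. Of other cell types, T and B cell markers summed to at most 3.21 FPKM in antagomiR-122 livers and 2.54 FPKM in antagomiR-control livers. Neutrophil markers summed to 5.78 to 12.6 FPKM in antagomiR-122 livers and 8.77 to 25.8 FPKM in antagomiR-control livers, and cholangiocyte markers to 26.0 to 30.5 FPKM in antagomiR-122 livers and 30.4 to 38.7 FPKM in antagomiR-control livers. The groups of Lrat, a stellate cell marker, and Spp1, a cholangiocyte marker, did not overlap, both being lower in antagomiR-122 livers, with limma adjusted p of 0.486 and 0.536. They were 1 of 5 tested stellate and 1 of 2 tested cholangiocyte markers, against 4.52% of all genes without overlap.

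A site for miR-122, the letters ACACTCC or CACTCCA that pair with its seed, lay in the annotated UTR after the stop codon of 9 of 71 tested members (12.7%), against 15.5% of 10464 tested genes. The median log2 fold change was 0.01 for the 9 members with a site, of which 6 were above 0 and 3 below 0, and 0.01 for members without one. Over all genes tested it was -0.01 with a site and 0.01 without.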

How the data were processed

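Liver RNA of 8 mice was sequenced on an Illumina NextSeq instrument, per the labels. Per the submitters' processing notes, the tools were TopHat2 2.0.13, Cuffdiff, Cufflinks 2.2.1, cutadapt 1.7.1 and bcl2fastq 2.15.0.4, and the build was GRCm38. For the annotation release and strand setting, no value is given in the sources used here. Expression was deposited by the authors as FPKM per mouse, with a log2 fold change and a test statistic, each read as a score, and a p-value and q-value per gene. FPKM are not counts, so limma 3.58.1 (R 4.3.3, trend and robust, two-sided) was run on log2(FPKM + 1) of the 11131 genes that averaged 1 FPKM or more, with Benjamini-Hochberg adjustment over all of them. The code was tested on simulated data. Total fragments are not in the table, and relative depth was read from values under 0.3 FPKM. Exact permutation tests went through every split or pairing of the mice with numpy 2.4.6. Ranks and the adjustment of the correlation p used scipy 1.17.1. Columns were matched to mice by group and number, and each sample is 1 mouse.

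The members and lists were chosen with earlier results of these data known. Named were, per family, the 3 tested members with the smallest limma p, the highest one and those without overlap, all members of families of up to 4, the 3 smallest p of each list, and Hsf1. Hspa5, Hspa1b, Hspa13, Dnajb1, Dnajb11 and Dnajc12 were added after their values were seen. Promoters and symbols came from RefSeq (GRCm38.p6), transcripts from GENCODE M21, which held 72 of the 73 tested members. Alternatives covered the pseudocount, the filter, scaling, the limma settings, a replicate block and each mouse left out.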

Additional observations from a re-analysis of the deposited data

Results flagged for a closer look

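Among 90 sets of 4 mice tested for a single value far from the other 3 (gap over range above Dixon's critical value for 4), 3 stood apart, where chance gives about 1 in 20. Hspa14, a ribosome-linked Hsp70, had 10.2 FPKM in antagomiR-122 replicate 4, the deepest library, against 7.08 to 7.32 FPKM in the other 3 antagomiR-122 livers. Dnajc12, the J-protein of phenylalanine hydroxylase, had 20.3 FPKM in antagomiR-122 replicate 2, against 9.71 to 10.8 FPKM in the other 3. The small heat shock gene Hspb6 had 7.29 FPKM in antagomiR-control replicate 2, against 8.99 to 9.22 FPKM in the other 3 antagomiR-control livers.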

How the results depend on the processing

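No gene and no chaperone gene passed a limma adjusted p of 0.05 under any alternative run. At an unadjusted p under 0.05, limma listed 1 member with no filter and 1 with a replicate block, in place of 2. With each mouse left out it listed 0 to 4, against 5.42% to 8.73% of all genes in place of 7.44%. It listed 0 without antagomiR-122 replicate 4 (8.19% of all genes) and without antagomiR-control replicate 1 (5.42%) or 2 (5.77%). It listed 1 without antagomiR-122 replicate 3 (5.65%) and 4 without antagomiR-122 replicate 2 (8.73%). Same-numbered mice did not deviate together (r of 0.13, -0.24, -0.06 and -0.18, with 1 number of 4 closest to its own), so the numbers were not taken as pairs. Members whose groups did not overlap numbered 1 to 4 with each mouse left out, the 4 being without antagomiR-control replicate 3, against 6.31% to 9.28% of all genes in place of 4.52%, since fewer mice leave less room for overlap. Median log2 fold change of the members ran from -0.01 to 0.06 with each mouse left out. With each mouse left out, 9 to 19 members had r of at least 0.8 with Hspa8, against 1.65% to 3.67% of all genes. For Hspa5 there were 10 to 18, against 1.99% to 3.67%. Without the 2 farthest mice there were 19 with Hspa8 (4.51% of all genes) and 11 with Hspa5 (2.57%). These correlation alternatives were chosen after seeing the data. Of 45 genes recomputed, 22 changed the sign of their log2 fold change when a mouse was left out, with the cause not tested, and ran from -0.066 to 0.14 for Bag3, -0.060 to 0.040 for Cct8, -0.12 to 0.022 for Dnaja1, -0.091 to 0.10 for Dnaja4, -0.0094 to 0.13 for Dnajb2, -0.12 to 0.018 for Dnajc3, -0.12 to 0.065 for Hsp90b1, -0.015 to 0.15 for Hspa14, -0.037 to 0.17 for Hspa8, -0.0067 to 0.090 for Hspa9, -0.28 to 0.058 for Hspb6, -0.097 to 0.041 for Hspb8, -0.015 to 0.054 for Hspd1, -0.11 to 0.052 for Pdia3, -0.17 to 0.030 for Pdia4, -0.018 to 0.21 for Pdia5, -0.10 to 0.075 for Pdia6, -0.20 to 0.17 for Hspa5, -0.27 to 0.14 for Hspa1b, -0.094 to 0.098 for Hspa13, -0.013 to 0.20 for Dnajb1 and -0.16 to 0.086 for Dnajb11. Median ratio scaling gave Hspa13 -0.0030, in place of 0.0084. Depth, read only in relative terms, gives no counting interval for these FPKM, and 4 mice per group with a median SD of 0.17 limit what could be called, so a difference that did not pass is not shown to be absent.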
